A study of Rattus norvegicus with 3 samples.

Results

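Tubulin genes and genes for proteins that bind, sever or modify microtubules were examined in cultured rat commissural neurons, which send axons across the midline of the spinal cord. The members were all table entries whose symbol named a numbered alpha, beta, gamma, delta or epsilon tubulin or 1 of a fixed set of microtubule-associated proteins and partners. This gave 51 of 26353 entries, 18 tubulins and 33 others, with 49 distinct symbols because Mapre2 and Tbcb had 2 entries each. The study's single group has 3 libraries, numbered 1, 2 and 3 as in the labels, made from polyadenylated RNA of neurons taken from embryos of embryonic day 13 and kept for 2 days in culture. No agent, genotype, strain or control group is named in the labels, so each comparison is between genes of one library set. Levels are FPKM as deposited, that is, fragments per length of transcript and per number of mapped fragments. Separate cultures or animals are not named in the labels, so errors and p-values cover only the spread of these 3 samples, which may be technical.

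Microtubules are hollow polymers of alpha and beta tubulin dimers that grow and shrink mainly at their plus ends. In a growing axon they form the track for transport and push into the growth cone, the tip that reads guidance cues. Tubulin isotypes differ mainly in their tails, which carry most of the chemical modifications, and the associated proteins decide where the polymer is nucleated, stabilised, cut or capped. Several of these genes, among them Tuba1a, Tubb2b, Tubb3 and Dcx, are known in human for cortical malformations or axon guidance disorders when mutated.

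Promoter sequences are shown for the 5 tubulin genes on which the isotype results turn: Tuba1a, the leading alpha gene, Tubb5, Tubb2b and Tubb3, the leading beta genes, and Tubb2a, the close relative and neighbour of Tubb2b that had a much lower level. Each is the 250 bases before the gene's start in RefSeq on build GRCr8, written 5′ to 3′ on the gene's own strand. Capitals mark matches on either strand to any of 4 promoter motifs. The TATA core was searched as TATAA, the GC box as the letters GGGCGG and the CCAAT box by the letters of its name. The E-box of neural bHLH factors was searched as CAGCTG. Each motif was counted by itself, matches on the 2 strands may overlap, and a stretch that reads the same on both strands counted once.
Tuba1a, chr7:131995820-131996069, minus strand: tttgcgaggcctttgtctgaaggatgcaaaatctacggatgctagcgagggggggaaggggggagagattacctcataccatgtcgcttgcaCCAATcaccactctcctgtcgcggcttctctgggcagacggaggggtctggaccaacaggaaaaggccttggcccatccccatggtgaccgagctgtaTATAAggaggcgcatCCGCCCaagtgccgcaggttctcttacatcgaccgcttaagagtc
Tubb5, chr20:2917327-2917576, plus strand: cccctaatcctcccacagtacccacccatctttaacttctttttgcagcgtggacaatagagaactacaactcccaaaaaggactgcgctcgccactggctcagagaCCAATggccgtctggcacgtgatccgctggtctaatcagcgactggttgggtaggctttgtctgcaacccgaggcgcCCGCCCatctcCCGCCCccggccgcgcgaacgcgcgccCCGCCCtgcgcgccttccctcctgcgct
Tubb2b, chr17:30952836-30953085, plus strand: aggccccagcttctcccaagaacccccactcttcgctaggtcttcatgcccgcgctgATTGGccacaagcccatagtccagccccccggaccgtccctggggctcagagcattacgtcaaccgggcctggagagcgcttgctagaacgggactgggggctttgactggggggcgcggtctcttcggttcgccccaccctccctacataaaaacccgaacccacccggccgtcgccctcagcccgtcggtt
Tubb2a, chr17:31001936-31002185, plus strand: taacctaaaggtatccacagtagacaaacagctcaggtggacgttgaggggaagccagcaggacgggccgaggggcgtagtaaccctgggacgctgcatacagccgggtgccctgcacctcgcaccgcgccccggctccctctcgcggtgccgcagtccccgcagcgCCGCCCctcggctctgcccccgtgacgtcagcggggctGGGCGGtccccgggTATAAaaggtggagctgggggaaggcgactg
Tubb3, chr19:68365437-68365686, plus strand: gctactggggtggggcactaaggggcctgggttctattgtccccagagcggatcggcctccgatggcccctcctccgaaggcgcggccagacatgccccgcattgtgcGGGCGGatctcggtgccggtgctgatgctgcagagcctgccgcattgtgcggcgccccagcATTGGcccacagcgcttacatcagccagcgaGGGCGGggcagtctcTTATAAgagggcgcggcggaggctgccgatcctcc

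The 250 bases before Tubb2a held 1 TATA core and 2 GC boxes and no CCAAT box. Those before Tubb2b held 1 CCAAT box and neither a TATA core nor a GC box. The Tuba1a window held 1 match each to the TATA core, the GC box and the CCAAT box. The Tubb3 window held 2 TATA cores that overlap on opposite strands, 2 GC boxes and 1 CCAAT box, and the Tubb5 window 3 GC boxes and 1 CCAAT box. None of the 5 held CAGCTG. Of the 17 tubulin symbols with a promoter in the table, 6 had a TATA core, 9 a GC box, 11 a CCAAT box and 3 the E-box. Among all 27457 rat promoters of that length, the shares were 24.1%, 32.4%, 34.3% and 11.9%. The matches are letters in a window, and their relation to the levels was not tested.

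Of the 51 members, 50 were above 0 in at least 1 library, and 43 of these 50 (86%) exceeded a level of 1 FPKM by limma (moderated, one-sided, Benjamini-Hochberg adjusted over the whole table). Of all 17611 entries tested, 63.7% passed. The members' means had a median of 28.8 FPKM, against 4.81 FPKM for all entries tested. Of the 18 tubulins 12 passed, and of the 33 other entries 31. Among the 39 members with a mean of 5 FPKM or more, the coefficient of variation over the 3 libraries ran from 1.14% to 27.6% with a median of 6.73%, against a median of 8.32% for the 8069 described entries at that level. The 7 that did not pass were Tuba4a, Tuba3a, Tuba3b, Tuba8, Tubd1, Map7 and the second Tbcb entry.

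The alpha tubulins were dominated by Tuba1a, the main alpha gene of developing neurons. Tuba1a (ENSRNOG00000004559) had 4963, 5800 and 5022 FPKM in libraries 1, 2 and 3, a mean of 5262 ± 467 FPKM (SD, n = 3). It ranked 1 of the 19611 entries with a description. That ranking leaves out entries without a description, among them 56 with a mean above 10000 FPKM. Tuba1c, an alpha gene found in many tissues, had 680, 791 and 709 FPKM, and its rank was 43. Library 2 held the highest value of both genes, and their ranges did not overlap. Tuba1a exceeded Tuba1c by 7.24-fold (95% interval 6.93 to 7.56) and did so in 3 of 3 libraries. Folds were computed from log2(FPKM + 0.1), so those of low genes come out too small. Nearly every entry differed from Tuba1a in the same fit (99.6% of all tested), so the size of a difference says more than its call.

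The other alpha genes were nearly silent. Tuba4a, whose protein lacks the encoded tyrosine at its end, had 0.41, 0.33 and 0.31 FPKM. Tuba3a, a testis gene in mouse, was listed at 0.03, 0 and 0.03 FPKM and its copy Tuba3b at 0.03, 0 and 0. Tuba8 was listed at 0.05, 0 and 0 FPKM. In the summed alpha FPKM, Tuba1a thus held 87.9, 88.0 and 87.6% in libraries 1, 2 and 3 and Tuba1c 12.1, 12.0 and 12.4%. The shares do not depend on the scaling of a library, and the 3 libraries differed little. No entry carried the symbol Tuba1b, so that gene was not analysed here. The alpha genes are near-identical in their coding parts, and how the authors assigned reads that fit several copies is not given in the sources used here, and the table describes the Tuba1a entry only as an alpha-1-like chain. Reads of 1 gene may be counted under another, and the split between Tuba1a and Tuba1c is uncertain.

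**Figure D1:**
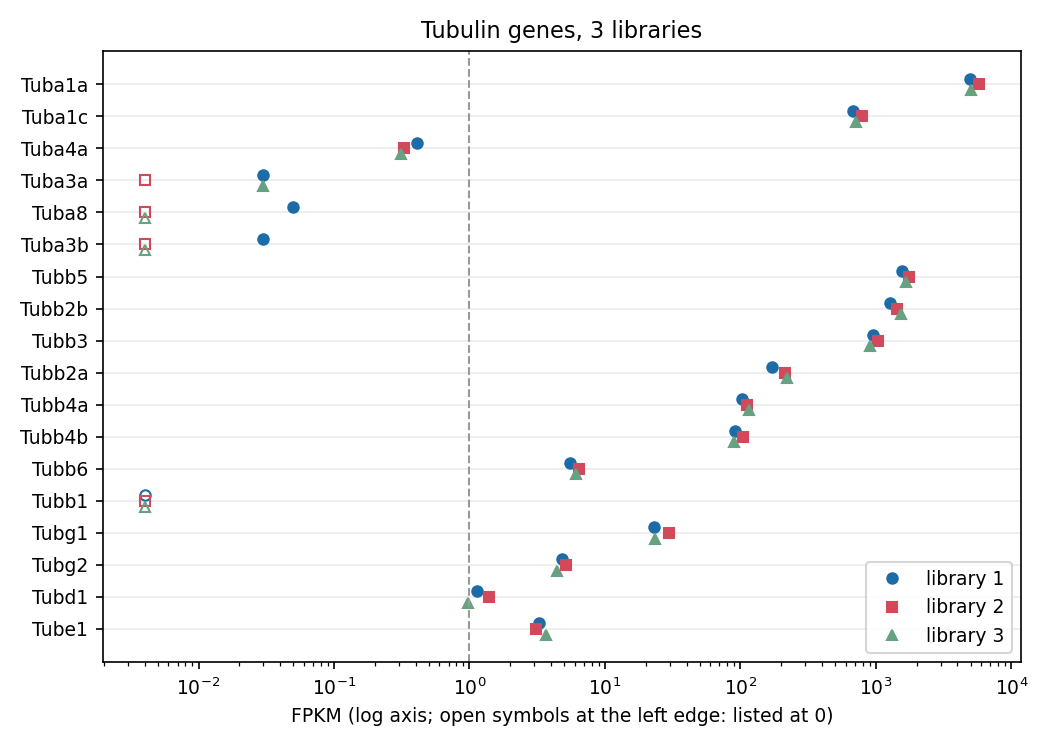
FPKM of the 18 tubulin genes in each of the 3 libraries on a log axis, ordered as alpha, beta, gamma, delta and epsilon tubulins, with the dashed line at 1 FPKM and open symbols for values listed at 0. Tuba1a stands at 4963 to 5800 FPKM, 3 beta genes lie between 900 and 1756 FPKM, and Tuba3a, Tuba3b, Tuba8 and Tubb1 are at or near 0.

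The beta tubulins were shared among 3 leading genes rather than 1. Tubb5 (class I), the broadly expressed beta gene, had 1552, 1756 and 1654 FPKM, a mean of 1654 ± 102 (SD, n = 3). Tubb2b (class IIb), a gene of immature neurons, had 1269, 1440 and 1520 FPKM (1410 ± 128). Tubb3 (class III), the beta gene used as a marker of neurons, had 944, 1037 and 900 FPKM (960 ± 70.2). Library by library the order was Tubb5, Tubb2b, Tubb3, and Tubb2b overlapped neither of the others in range. Together these 3 made up 91.0, 90.7 and 90.4% of the summed beta FPKM.

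Against Tubb3, Tubb5 was 1.72-fold higher (1.59 to 1.86, 3 of 3 libraries) and Tubb2b 1.47-fold higher (1.30 to 1.65, 3 of 3 libraries), and 99.5% of all entries differed from Tubb3. Both calls are fragile: with the variance taken from ratios that share no gene, the Benjamini-Hochberg adjusted p of limma's test was 0.0508 for Tubb5 and 1.00 for Tubb2b, and a margin of at least 1.5-fold was not passed by Tubb2b. Tubb5 exceeded Tubb2b by 1.18-fold (1.07 to 1.30, 3 of 3 libraries), in a fit with Tubb5 as the base that was chosen after the values were seen and in which 99.6% of all entries differed. That call was lost without library 1 (limma, Benjamini-Hochberg adjusted p = 0.141), with a 1.5-fold margin (1.00) and with the variance from ratios that share no gene (1.00).

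The remaining beta genes lay well below Tubb3, which exceeded Tubb2a by 4.78-fold (4.13 to 5.52), Tubb4a by 8.72-fold (7.86 to 9.68) and Tubb4b by 10.1-fold (9.40 to 10.7), each in 3 of 3 libraries. Tubb2a (class IIa), the close relative of Tubb2b, had 171, 213 and 221 FPKM, so Tubb2b over Tubb2a was 7.41, 6.75 and 6.88 in libraries 1, 2 and 3. Tubb4a (class IVa), in the adult a gene of neurons and oligodendrocytes, had 102, 112 and 116 FPKM. Tubb4b (class IVb), broadly expressed and a tubulin of cilia, had 91.8, 105 and 90.1 FPKM. The class IV pair overlapped in range, and Tubb4a exceeded Tubb4b by only 1.15-fold (interval 1.00 to 1.32, adjusted p = 0.0432 by limma, 3 of 3 libraries, 98.2% of all entries called). This pair was chosen after its values were seen, and its call needed all 3 libraries. The call was also lost with a 1.5-fold margin and with the variance from ratios that share no gene.

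Tubb6 (class V) had 5.54, 6.46 and 6.16 FPKM, 156-fold below Tubb3 (136 to 179). Tubb1 (class VI), the beta tubulin of platelets, was listed at 0 in every library. Of the 4 platelet and megakaryocyte markers counted, none lay above 1 FPKM in limma's test, none passed at an unadjusted p under 0.05, and Ppbp was listed at 0. Among all entries tested, 63.7% lay above 1 FPKM in that test. Tubb5 held 37.3 ± 0.50% of the summed beta FPKM, Tubb2b 31.7 ± 1.71%, Tubb3 21.7 ± 1.51%, Tubb2a 4.54 ± 0.382%, Tubb4a 2.48 ± 0.0888%, Tubb4b 2.15 ± 0.134% and Tubb6 0.136 ± 0.00224% (SD, n = 3). The share of Tubb3 was lowest in library 3 (20.0%), where that of Tubb2b was highest (33.7%). Beta isotypes also share long stretches of coding sequence, so the split of reads between Tubb2a and Tubb2b, above all, is uncertain.

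**Figure D2:**
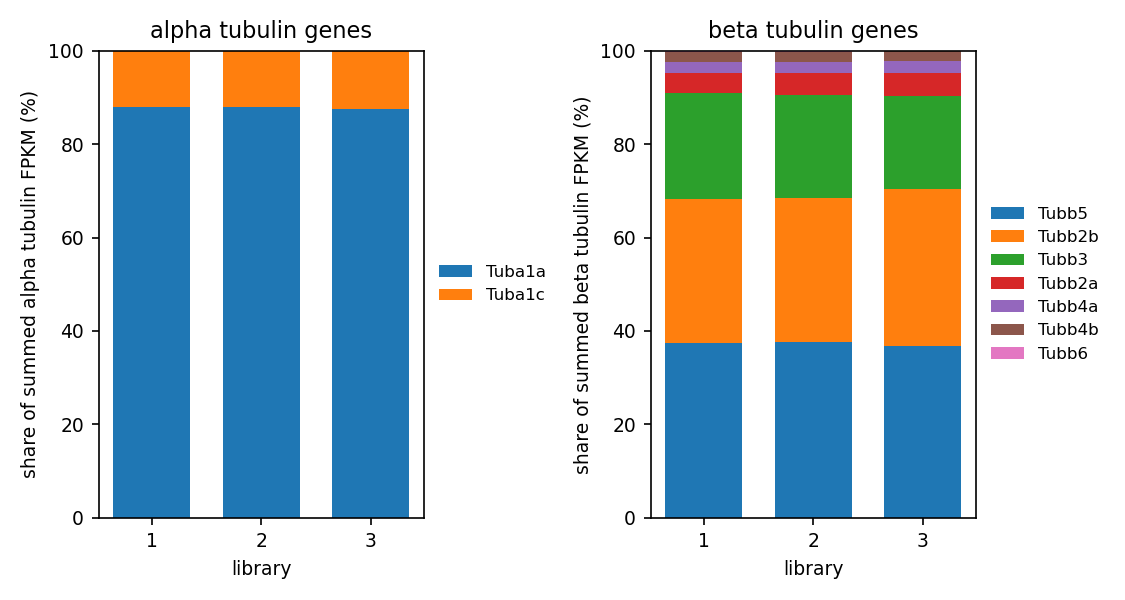
Share of each gene in the summed FPKM of the alpha tubulins (left) and the beta tubulins (right), in percent, 1 stacked bar per library and 1 colour per gene. Tuba1a fills 87.6 to 88.0% of the alpha bars, while Tubb5, Tubb2b and Tubb3 divide 90.4 to 91.0% of the beta bars among them.

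The summed FPKM was 5644, 6591 and 5731 for the alpha genes and 4137, 4669 and 4507 for the beta genes, a ratio of 1.36, 1.41 and 1.27. The sums are per length of transcript and leave out Tuba1b, so they do not give the stoichiometry of the proteins. Gamma tubulin, which nucleates microtubules and does not enter the polymer, was far lower than either sum. Tubg1 had 22.9, 29.6 and 23.4 FPKM and Tubg2, its relative of the nervous system, 4.79, 5.20 and 4.42. Their ranges did not overlap, and Tubg1 exceeded Tubg2 by 5.16-fold (4.24 to 6.27, 3 of 3 libraries; 94.1% of all entries differed from Tubg1). Tube1, a tubulin of centrioles, had 3.25, 3.12 and 3.66 FPKM. Tubd1, its partner there, had 1.14, 1.40 and 0.97 FPKM and did not pass the level of 1 FPKM (limma, Benjamini-Hochberg adjusted p = 0.173).

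Of the members that bind along the microtubule wall, Dcx had the highest mean. Dcx, the doublecortin of migrating and growing neurons, had 431, 419 and 418 FPKM, a mean of 423 ± 6.90. Dclk1 and Dclk2, which join doublecortin domains to a kinase, had 87.0, 80.1 and 86.6 FPKM and 47.2, 49.5 and 50.9 FPKM. The 3 genes did not overlap, and Dcx exceeded Dclk1 by 5.0-fold (4.42 to 5.64) and Dclk2 by 8.58-fold (7.62 to 9.66), each in 3 of 3 libraries; 99.3% of all entries differed from Dcx.

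Map1b, a large protein of growing axons, came next among these members with 311, 179 and 295 FPKM, and library 2 stood clearly below the other two. Map1s had 20.2, 20.5 and 18.7 FPKM. Map1a, the form that takes over in mature neurons, had 10.7, 7.89 and 11.2 FPKM and was also lowest in library 2. Map1b exceeded Map1a by 25.6-fold (15.7 to 41.9) and Map1s by 12.8-fold (7.75 to 21.1), in 3 of 3 libraries, while 97.9% of all entries differed from Map1b. The difference from Map1s did not pass with the variance taken from ratios that share no gene (limma, Benjamini-Hochberg adjusted p = 0.0704).

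Map2, which marks dendrites in mature neurons, had 194, 190 and 194 FPKM and was the least variable member above 5 FPKM. Mapt, the axonal protein tau, had 160, 166 and 157 FPKM. Map2 exceeded Mapt in every library, by 1.20-fold (interval 1.05 to 1.37, adjusted p = 0.0142 by limma, with 98.9% of all entries called against Map2). That call was lost without library 1 (adjusted p = 0.160), without library 3 (0.191) and with a 1.5-fold margin (limma, Benjamini-Hochberg adjusted p = 1.00). The same held with the variance taken from ratios that share no gene (limma, Benjamini-Hochberg adjusted p = 0.810). Map4, the relative found in most cell types, had 37.4, 39.2 and 41.6 FPKM, 4.89-fold below Map2 (4.35 to 5.5).

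The Map7 family recruits kinesin-1 to microtubules, and here Map7d1 led it. Map7d1 had 70.8, 67.1 and 72.6 FPKM, Map7d2 1.96, 2.21 and 1.99, and Map7 itself 0.51, 0.54 and 0.74. No value of 1 gene overlapped another's. Map7d1 exceeded Map7 by 102-fold (75.5 to 137) and Map7d2 did so by 3.12-fold (2.30 to 4.22), each in 3 of 3 libraries, with 93.4% of all entries called against Map7; Map7d2 did not pass with the variance taken from ratios that share no gene (limma, Benjamini-Hochberg adjusted p = 0.330). Map6, a stabiliser of cold-resistant microtubules, had 29.2, 26.4 and 28.2 FPKM and Map9 14.8, 16.0 and 16.2 FPKM.

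**Figure D3:**
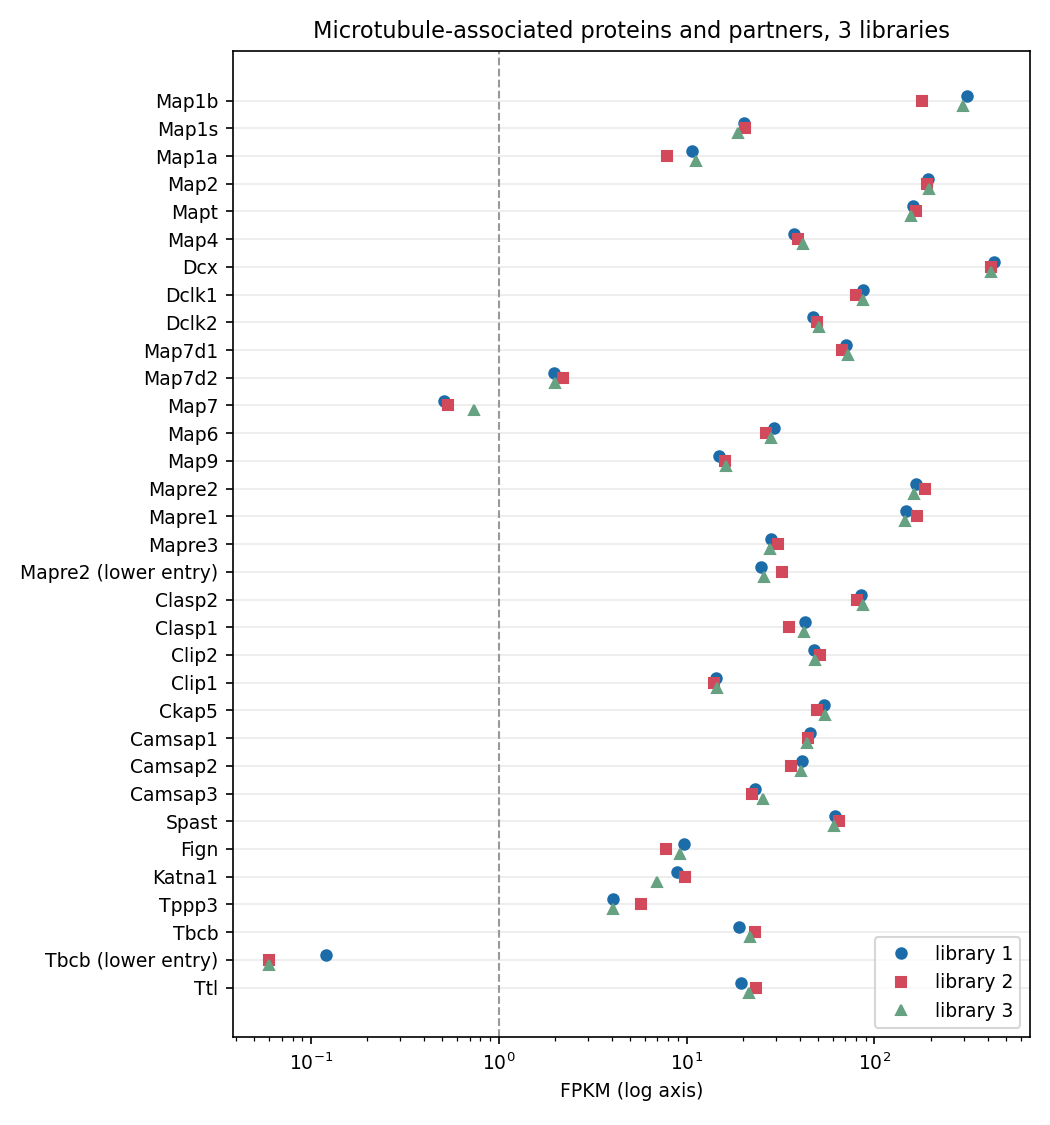
FPKM of the 33 other entries in each library on a log axis, ordered by family from wall-binding proteins at the top to end-binding, minus-end and severing proteins, then Tppp3, Tbcb and Ttl; the dashed line marks 1 FPKM. Dcx, Map1b, Map2, Mapt, Mapre1 and the higher Mapre2 entry lie between 146 and 431 FPKM, and Map7 and the lower Tbcb entry lie below 1 FPKM.

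At the growing plus end, the end-binding proteins that track the tip were led by Mapre1 (EB1) and Mapre2 (EB2). Mapre1 had 147, 168 and 146 FPKM. The higher of the 2 Mapre2 entries had 166, 185 and 162 FPKM and the lower, described as a Mapre2-like gene, 25, 32.3 and 25.9. Mapre3 (EB3), known from neurons and muscle, had 28.2, 30.6 and 27.7 FPKM. The higher Mapre2 entry and Mapre1 overlapped in range; within each library Mapre2 was above Mapre1, by 1.11-fold (interval 1.06 to 1.17, adjusted p = 0.00226 by limma, with 99.2% of all entries called against Mapre1), less than a 1.5-fold margin (adjusted p = 1.00). The call for the higher Mapre2 entry was also lost with the variance taken from ratios that share no gene. Mapre1 exceeded Mapre3 by 5.32-fold (4.94 to 5.72) and the lower Mapre2 entry by 5.56-fold (5.08 to 6.08), each in 3 of 3 libraries.

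The other plus-end members were all above 1 FPKM in limma's test, as were 63.7% of all entries tested. Clasp2, which rescues shrinking microtubules, had 85.2, 80.6 and 86.9 FPKM and Clasp1 42.9, 34.9 and 42.2. Clasp2 exceeded Clasp1 by 2.11-fold (1.63 to 2.73, 3 of 3 libraries; 93.3% of all entries differed from Clasp1), with an adjusted p of 0.0508 in limma's test when the variance came from ratios that share no gene. Clip2 had 47.9, 51.5 and 48.2 FPKM and Clip1 14.3, 13.9 and 14.6; Clip2 exceeded Clip1 by 3.42-fold (3.00 to 3.91, 3 of 3 libraries; 93.2% of all entries differed from Clip1). Ckap5, a polymerase that adds tubulin to the tip, had 53.9, 49.7 and 54.7 FPKM.

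At the minus ends, which Camsap proteins cap when they are free of the centrosome, Camsap1 had 45.2, 44.3 and 43.8 FPKM, Camsap2 41.4, 36.2 and 40.6, and Camsap3 23.3, 22.3 and 25.4. Camsap1 and Camsap2 could not be separated by the test (log2 ratio of Camsap1 to Camsap2 0.18, interval -0.10 to 0.45; limma, Benjamini-Hochberg adjusted p = 0.218), but did without library 2 (adjusted p = 0.0202). Camsap2 exceeded Camsap3 by 1.66-fold (1.39 to 1.99, 3 of 3 libraries; 94.6% of all entries differed from Camsap2), a call not passed with a 1.5-fold margin (limma, Benjamini-Hochberg adjusted p = 0.153) or with the variance from ratios that share no gene (0.103).

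Among the severing enzymes, Spast, mutated in human hereditary spastic paraplegia, stood well above the other two. Spast had 61.7, 64.5 and 61.0 FPKM, Fign 9.65, 7.82 and 9.23, and Katna1, the catalytic subunit of katanin, 8.87, 9.86 and 6.95. Spast exceeded Katna1 by 7.29-fold (5.90 to 9.0, 3 of 3 libraries; 89.2% of all entries differed from Katna1). Fign and Katna1 overlapped and could not be separated by the test (log2 ratio of Fign to Katna1 0.06, interval -0.30 to 0.43; limma, Benjamini-Hochberg adjusted p = 0.744). Among related severing genes on a fixed list, Fignl1 had 1.16 ± 0.245, Katnal2 0.727 ± 0.225 and Katnal1 0.160 ± 0.0346 FPKM, and none of these 3 passed the level of 1 FPKM (limma, Benjamini-Hochberg adjusted p = 0.217 for Fignl1 and 1.00 for the other two), nor did any at an unadjusted p under 0.05. The share passing that level among all entries tested was 63.7%.

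The 3 members left act on tubulin itself or on its polymerisation. Ttl, which adds back the terminal tyrosine of alpha tubulin, had 19.5, 23.4 and 21.6 FPKM. Tbcb, a cofactor in tubulin folding, had 19.1, 23.2 and 21.7 FPKM in its higher entry and 0.12, 0.06 and 0.06 in the other. Tppp3, a bundling protein, had 4.06, 5.75 and 4.08 FPKM, highest in library 2.

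In all, 29 pairs of a family member with a fixed base gene were tested and 27 differed past the threshold, 28 with the same direction in 3 of 3 libraries. In the same fits 89.2 to 99.6% of all entries differed from these base genes, so the count says little about the families. All ratios of 1 fit share the error of their base gene, so these p-values are too small. With the variance taken from 8805 ratios of entries that neighbour each other in level and share none, 19 of the 29 passed after adjustment over all these ratios, which are near 0 by construction and make that adjustment severe. Tubb1 entered no pair because it was listed at 0.

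Library 2 stood apart from libraries 1 and 3 in a few members, Map1b above all. Such a deviation was not computed for library 1 or library 3, where single members also differed. Tubb2a had 171 FPKM in library 1 against 213 and 221, and Katna1 had 6.95 in library 3 against 8.87 and 9.86. Map1b had 179 FPKM in library 2, which was 59.0% of its mean of 303 in libraries 1 and 3. On the log2 scale, less the median of all entries tested (0.10), its deviation was -0.86, and 0.446% of the 8069 described entries with a mean of 5 FPKM or more had one as low. Map1a deviated by -0.58, Clasp1 by -0.39, Fign by -0.37 and Camsap2 by -0.28. The range from the 5th to the 95th percentile of the described entries was -0.38 to 0.26. Fign and Camsap2 thus lay inside that range and Clasp1 at its edge.

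Other members with a mean of 5 FPKM or more deviated less. Dcx deviated by -0.12 and Map2 by -0.13 on the same scale, and the 10 tubulins of 5 FPKM or more by -0.07 to 0.25 with a median of 0.05. Library 2 was below both others in 0 of these 10 tubulins, in 13 of the 29 other members at that level and in 18.6% of the described entries. Mean levels without library 2 leave Map1b between Dcx and Map2. Among related genes, named after their values were seen, the linkers of microtubules and actin Dst (-1.05) and Macf1 (-0.98), the plus-end proteins Nav1 (-0.83) and Nav2 (-0.70) and the tumour suppressor Apc (-0.52) were also low there, and Mzt1, a small subunit of the nucleating complex, was high (0.93). Several of the low genes, Map1b, Macf1 and Dst among them, are known for long transcripts; transcript length is not in the table, and its part in these values was not tested. Of the 6 progenitor markers, Fabp7 deviated by 0.34 and Sox2 by 0.22 in library 2 and the other 4 by -0.06 to 0.10, and their part was not tested either.

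**Figure D4:**
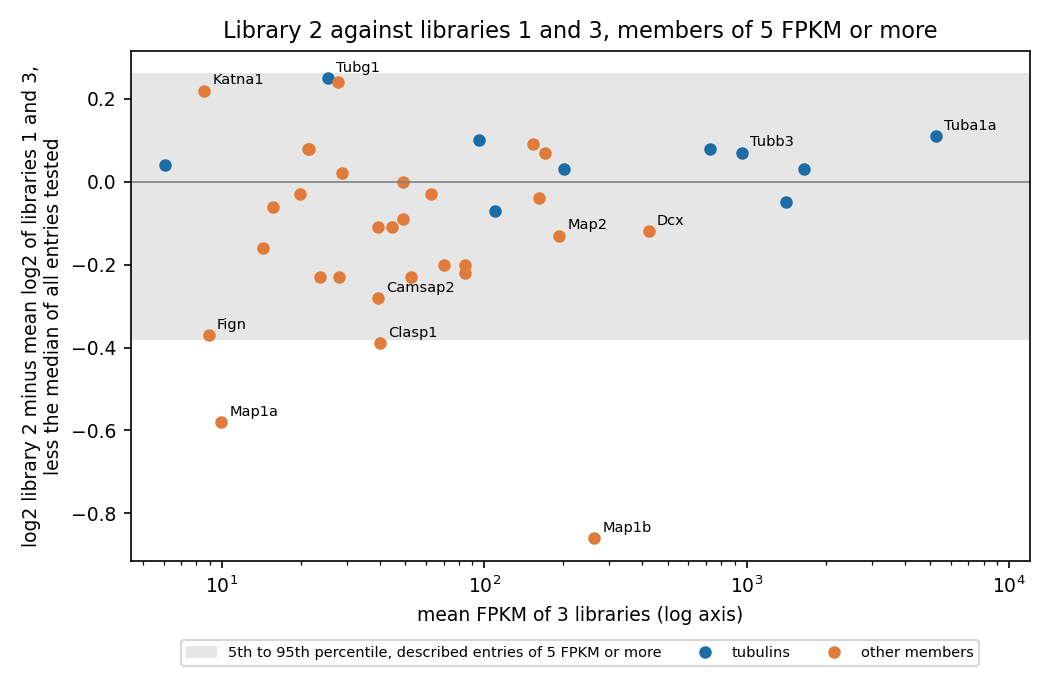
Log2 FPKM of library 2 minus the mean log2 of libraries 1 and 3, less the median of all entries tested, against the mean FPKM on a log axis, for the 10 tubulins and 29 other members of 5 FPKM or more; the grey band is the 5th to 95th percentile of described entries at that level. Map1b (-0.86) and Map1a (-0.58) lie below the band, Clasp1 (-0.39) at its lower edge, and the tubulins between -0.07 and 0.25.

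The wider microtubule system was counted from 13 lists of 104 genes, of which 102 were matched. Of these, 3 were listed at 0 and 99 were tested, of which 85 (85.9%) lay above 1 FPKM, against 63.7% of all entries tested. The median over the 102 was 14.4 FPKM, against 4.81 FPKM over all entries tested. Of the machinery that folds tubulin, all 8 chaperonin subunits passed, from Cct5 at 201 ± 27.4 to Cct6a at 124 ± 9.94 FPKM. All 6 folding cofactors and partners also passed, with Tbca at 185 ± 17.2, Arl2 at 40.8 ± 3.55, Tbcd at 33.6 ± 0.692, Tbce at 27.3 ± 1.90, Tbcc at 26.0 ± 2.66 and Tbcel at 6.13 ± 0.395 FPKM. Ttc5 (26.6 ± 3.71) and Scaper (15.0 ± 0.573), which act in the feedback of free tubulin on tubulin mRNA, both passed.

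The enzymes that modify tubulin were counted by reaction, beside a share of 63.7% passing among all entries tested. Atat1, the alpha tubulin acetylase, had 108 ± 4.01 and the deacetylase Sirt2 34.5 ± 1.17 FPKM, while Hdac6, the other deacetylase, was listed at 0. Hdac6 had 2 entries, both at 0. How reads fitting several genes were handled is not given, so absence of Hdac6 was not shown. All 3 matched detyrosination genes passed: Svbp had 55.9 ± 8.07, Vash2 51.6 ± 3.81 and Vash1 32.5 ± 3.02 FPKM, set beside 21.5 ± 1.92 FPKM for Ttl, which reverses their reaction. Of 14 glutamylation and glycylation genes 6 passed, with Tpgs2, a subunit of the polyglutamylase complex, highest at 75.7 ± 4.27 and Ttll10 listed at 0. Of 6 deglutamylation genes 3 passed: Agtpbp1 had 28.2 ± 0.958, Agbl5 12.2 ± 0.522 and Agbl3 1.29 ± 0.242, while Agbl4 had 0.260 ± 0.0361, Agbl1 0.120 ± 0.0529 and Agbl2 0.0400 ± 0.0300 FPKM. The call for Agbl3 was lost when library 2 was left out (adjusted p = 0.156, limma) and when library 3 was (adjusted p = 0.0807, limma).

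**Figure D5:**
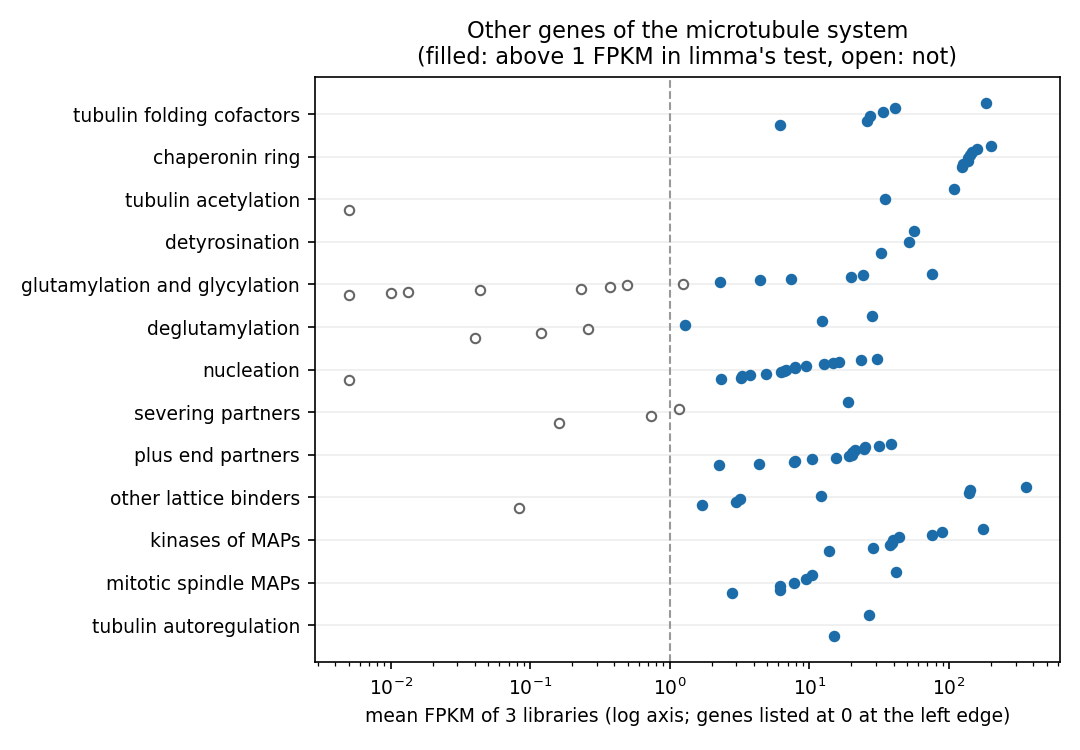
Mean FPKM of 102 further genes of the microtubule system on a log axis, 1 row per list; filled points lie above 1 FPKM in limma's test, open points do not, and genes listed at 0 stand at the left edge. The chaperonin ring sits between 124 and 201 FPKM, while glutamylation genes run from 0 to 75.7 FPKM.

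Nucleation genes passed in 16 of 17 cases, from Mzt1 at 30.4 ± 13.7 FPKM to Haus2, listed at 0. Haus2 also had 2 entries, both at 0, so its absence was not shown either. Mzt1 had 46.2 FPKM in library 2, against 21.5 and 23.4 in libraries 1 and 3. Tubgcp2, a core subunit of the nucleating complex, had 22.3 and 23.5 FPKM in libraries 1 and 3, so Mzt1 had the highest mean only through library 2. All 15 plus-end partners passed, from Apc (38.3 ± 6.10) to Clip4 (2.25 ± 0.373). All 9 listed genes for kinases of these proteins and for kinase activators passed, from the Cdk5 activator Cdk5r1 (176 ± 10.6) to Mark2 (13.9 ± 0.645). Of 8 other wall-binding genes 7 passed, led by Jpt1 (355 ± 46.7), with Map7d3 lowest at 0.0833 ± 0.0757 FPKM. The 7 matched spindle genes passed, from Numa1 (41.5 ± 5.03) to Spag5 (2.79 ± 0.225). The share passing among all entries tested was 63.7%.

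The labelled cell type was checked against marker lists. Since 63.7% of all entries tested lay above 1 FPKM, passing alone says little about a cell type. All 6 neuron markers lay above 1 FPKM, with summed levels of 391 to 429 FPKM per library, as did all 6 progenitor markers (947 to 1203) and all 6 markers of proliferating cells (114 to 134). Each of these sums was highest in library 2, as were 69.6% of the described entries of 5 FPKM or more. Fabp7 (mean 564 FPKM) and Vim (398) held most of the progenitor sum, while Nes had a mean of 3.15. Pcna (mean 69.4 FPKM) held most of the sum for proliferating cells. Of the oligodendrocyte markers 3 of 6 passed, with a sum of 25.7 to 30.4 FPKM of which Mog alone held 15.3 on average, while Sox10 and Olig1 were at 0.01. Astrocyte markers passed in 3 of 6 cases (35.8 to 37.5), microglia and macrophage markers in 3 of 6 (12.0 to 19.6), markers of multiciliated cells in 2 of 5 (3.98 to 4.83) and of fibroblasts and mural cells in 1 of 5 (3.09 to 4.13), with Dcn listed at 0. Slc1a2, with a mean of 26.6 FPKM, held most of the astrocyte sum. None of the 5 endothelial markers passed in limma's test or at an unadjusted p under 0.05. RNA of all cells in a culture was measured together, so which of them gave the Tubb5, Map4 or spindle transcripts was not tested, and fewer cells of a type cannot be told apart from less RNA per cell.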

How the data were processed

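RNA sequencing of 3 libraries of 1 group was analysed. The authors deposited 1 table of FPKM per entry and library. Per the labels, stranded libraries of polyadenylated RNA were read as 50-base pairs. Trimmomatic 0.22, FastQC, STAR and build rn6 come from the submitters' processing notes. How FPKM were computed, with which annotation, and how strand and reads fitting several genes were handled is not given in the sources used here. FPKM hold no read counts, so depth is unknown and no counting interval is given.

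Entries at 0 in all libraries were left out, which kept 17611 of 26353. limma 3.58.1 in R 4.3.3 was run on log2(FPKM + 0.1), with Benjamini-Hochberg adjustment over all these entries and a threshold of 0.05. A one-sided test set each entry against 1 FPKM, and two-sided tests set the log2 ratio to a base gene of its family against 0. The code was tested on simulated data. Members and lists were chosen with earlier results of these data known. The bases Tubb5 and Tubb4a, and the variance from ratios of neighbouring entries, were added after the values were seen. All tubulins and the members of each family are given per library, the highest and lowest gene of each further list, every gene of lists of up to 6 genes, and markers as counts and sums. Of the list genes, 5 carry another name in the table (Svbp and Jpt1 among them), and where a symbol had several entries the highest was used. Pairs of libraries held identical values in 0.0744 to 0.297% of the 8069 described entries of 5 FPKM or more. Promoters came from RefSeq on GRCr8, which is not the files' build, for 43 of the 49 symbols. No protein sequence was used. No sample was left out. 1 list gene that the rule for naming genes covers is not reported here.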

Additional observations from a re-analysis of the deposited data

How the results depend on the processing

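No paired analysis was possible because the series has 1 group. With every library scaled to the same sum, as TPM are, 25 members and 27 further genes lay above a level of 1, against 43 and 85; of all entries tested 13.4% did, against 63.7%. By construction that sum is taken up by 56 entries above 10000 FPKM, 3 of them with a symbol. The log2 distance to the level then turned negative for Ttl (-0.12), Tbcb (-0.13), Map1s (-0.22), Map9 (-0.52), Clip1 (-0.64), Map1a (-1.09), Fign (-1.21), Katna1 (-1.25), Tubb6 (-1.62), Tubg2 (-1.85), Tppp3 (-1.89), Tube1 (-2.19), Map7d2 (-2.55), Tubd1 (-2.87), Fignl1 (-2.88), Scaper (-0.57), Agbl5 (-0.83), Clip4 (-2.49), Agbl3 (-2.82), Spag5 (-2.33), Mark2 (-0.67) and Tbcel (-1.61). With the same scaling, 12 more of the named genes kept a positive distance but lost their call. Among them were Mapre3, Map6, the lower Mapre2 entry, Tubg1, Camsap3, Vash1 and Ttc5. Against a level of 5 FPKM the log2 distance was negative for Tubg2 (-0.06), Tppp3 (-0.13), Tube1 (-0.57), Map7d2 (-1.25), Tubd1 (-2.02), Fignl1 (-2.04), Clip4 (-1.13), Agbl3 (-1.89) and Spag5 (-0.82). It was positive for Map7 (0.26) and Katnal2 (0.50) when the sum left out the entries above 10000 FPKM, and for Map7 (0.20) and Katnal2 (0.43) against a level of 0.5 FPKM. With that sum Tubd1, Fignl1 and Katnal2 passed (limma, Benjamini-Hochberg adjusted p = 2.46e-11, 5.50e-11 and 0.0107), as did 68.6% of all entries. Against 0.5 FPKM these genes passed too (limma, Benjamini-Hochberg adjusted p = 7.92e-05, 1.19e-04 and 0.0392), as did 68.3% of all entries. Leaving out each library in turn gave 43 to 43 members, 84 to 85 further genes and 24 to 28 passing pairs. The 24 came without library 1. There Tuba3b and Tuba8, listed at 0 in libraries 2 and 3, were left out, so their pairs with Tuba1a were not tested. Without library 3 the log2 ratio of Fign to Katna1 was -0.11; the cause was not tested. The pairs that passed numbered 23 with a 1.5-fold margin and 19 with the variance from ratios that share no gene. For pairs, the share of all entries that differed was computed only with the settings first described. FPKM give no depth, so counting error at low levels could not be stated.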
